A study of Mus musculus with 8 samples.

Results

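The voltage-gated calcium and sodium channel genes are the genes that code for the subunits of the channels through which calcium and sodium ions enter excitable cells, and they were followed here by their promoter and genic 5-hydroxymethylcytosine (5hmC). Every gene whose symbol in the deposited lists fitted the calcium channel families Cacna1, Cacna2d, Cacnb or Cacng, or the sodium channel alpha (Scn followed by a number and a) or beta (Scn, a number and b) subunits, was taken. This gave 39 genes of the 21604 genes named in the 16 lists, of which 37 are described here: 10 Cacna1, 4 Cacna2d, 4 Cacnb, 8 Cacng, 8 sodium channel alpha and 3 sodium channel beta genes. The choice went by symbol, but a gene could enter only if at least 1 of the 16 lists named it. Of 40 RefSeq symbols that fitted the rule, 1 was not named. The 26220 RefSeq genes used below as background have no such filter, and the lists name 21515 of them.

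In this series, 6 libraries of hydroxymethylated DNA immunoprecipitation (hMeDIP), in which an antibody against 5hmC enriches fragments that are then sequenced, were compared. They came from neurons induced from mouse embryonic fibroblasts (MEFs) and collected at 1, 3, 5 and 7 dpi, as the labels write the time without spelling it out, and primary neurons from the hippocampus of 1-day-old pups, called the positive control by the labels. Each of these, 5 libraries, was set against the library of MEFs from E13.5 embryos, called the negative control. All cells were of the ICR strain and at 3 to 5 passages, with 1 library per group, so no test between conditions was possible and the values below carry counting error only. The factor used to convert the MEFs was not given in the sources used here, and since hMeDIP measures no RNA, the labelled cell types could not be checked against their markers.

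Voltage-gated calcium channels are built from a pore-forming alpha-1 subunit (Cacna1 genes) with beta (Cacnb) and alpha-2-delta (Cacna2d) subunits that carry the pore to the membrane and set its gating, and several Cacng genes code for proteins that mainly escort AMPA-type glutamate receptors. Sodium channels pair an alpha subunit, which starts the action potential, with adhesion-like beta subunits. The mark 5hmC is made from methylated cytosine by TET enzymes and is abundant in the gene bodies of mature neurons.

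Promoter 5hmC was given by the authors as lists of regions within 2000 bp of a transcription start site that held more signal (hyper) or less signal (hypo) than in MEFs. Within a comparison, each library has a scale factor of its own in the deposited values, so that 1 read was worth 1.32 to 1.34 in an induced or primary neuron library and 0.745 to 0.756 in MEFs, and reads are given below as recovered from them, while folds use the scaled values. Where a library held 0 reads, the fold was taken against 3 reads in that library and is written "at least". This is a convention that takes no account of counting error in the higher library. The exact conditional Poisson intervals of such folds start lower. They start at 8.64 for the 11.7 of Cacna1c (hyper, 5 dpi) and at 6.58 for the 8.44 of Cacng3 (hypo, 1 dpi). The MEF library stood apart from all others: it had 176853 peaks, against 262 to 1579 in the induced and primary neuron libraries, and all 5 comparisons share it, and they are therefore not independent of each other. In material of mixed cells, fewer cells with the mark and less mark per cell cannot be told apart.

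Channel promoters entered the hypo lists about as often as all promoters. Their share in the hyper lists was above that of all promoters at 1, 5 and 7 dpi, by the most at 5 dpi, and not at 3 dpi or in the primary neurons; these differences were not tested. Few of these hyper genes had a region with 15 or more reads: 0, 1, 3 and 0 at 1, 3, 5 and 7 dpi (1.09%, 1.64%, 3.01% and 1.42% of all genes) and 0 in the primary neurons (0.881%), the 3 of 5 dpi being Cacna1c, Scn1a and Scn8a. With regions wholly within 1000 bp of the start, 1, 3, 6 and 0 genes were hyper at 1, 3, 5 and 7 dpi. The share of all genes under this limit was not counted, so these numbers have no background. At 1 dpi, 8 of the 37 genes had a hyper region, against 11.7% of the 26220 RefSeq genes with a curated transcript, and 14 had a hypo region, against 36.8%. At 3 dpi, 4 genes were hyper (10.9% of all genes) and 13 were hypo (34.3%). At 5 dpi, 12 were hyper (16.9% of all genes) and 13 were hypo (34.1%). At 7 dpi, 5 were hyper (7.44% of all genes) and 12 were hypo (34.3%). In primary neurons, 2 were hyper (7.43% of all genes) and 12 were hypo (34.8%). As shares of the 37 genes, the hyper counts at 1, 3 and 5 dpi are 21.6%, 10.8% and 32.4%, and the share in the primary neurons is 5.41%. The hypo shares were 37.8%, 35.1%, 35.1% and 32.4% at 1, 3, 5 and 7 dpi and 32.4% in the primary neurons, each near the share of all genes. Both a hyper and a hypo region were listed for 4, 2, 4 and 1 genes at 1, 3, 5 and 7 dpi (5.51%, 4.64%, 6.95% and 3.26% of all genes) and for 1 gene in primary neurons (3.36%).

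**Figure D1:**
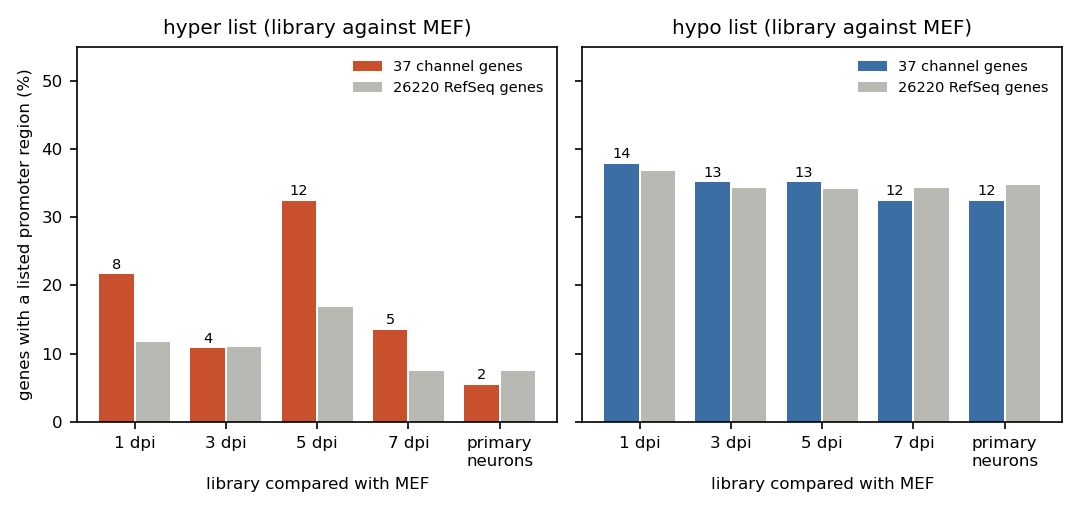
Percentage of genes with a listed promoter region in each comparison with MEF, for the 37 channel genes (coloured, with the number of genes above the bar) and for 26220 RefSeq genes (grey). The hyper share of channel genes is highest at 5 dpi, with 12 of 37 genes, while the hypo bars of both sets lie close together.

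The subunit families did not follow one pattern. Of the 8 sodium channel alpha genes described, 7 were in a hyper list at least once and 0 were ever in a hypo list, where 36.5% of all genes were ever hyper and 41.2% ever hypo. Scn2a, an alpha gene listed under an older symbol and so outside this count, was hypo in all 5 comparisons and also hyper at 3 dpi. Of the 10 Cacna1 genes, 6 were in a hypo list at least once, and the 4 of these that were also hyper at some time were hyper at another region or overlapped it in part. Of the 4 Cacnb genes, 3 were hypo and Cacnb1 was hyper. Over all 37 genes, 18 were ever hyper, 15 ever hypo, 8 both (18.8% of all genes), and 12 were in no list, where 58.9% of all genes were in at least 1 list. In all, 9 genes were hypo in all 5 comparisons (24.7% of all genes were), namely Cacna1a, Cacna1c, Cacna1d, Cacna1e, Cacna1s, Cacnb3, Cacnb4, Cacng3 and Cacng8, and 0 were hyper in all 5 (0.313% of all genes). Because the MEF reads at a given place are the same reads in every comparison, a repeated hypo call is not repeated evidence on the MEF side.

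**Figure D2:**
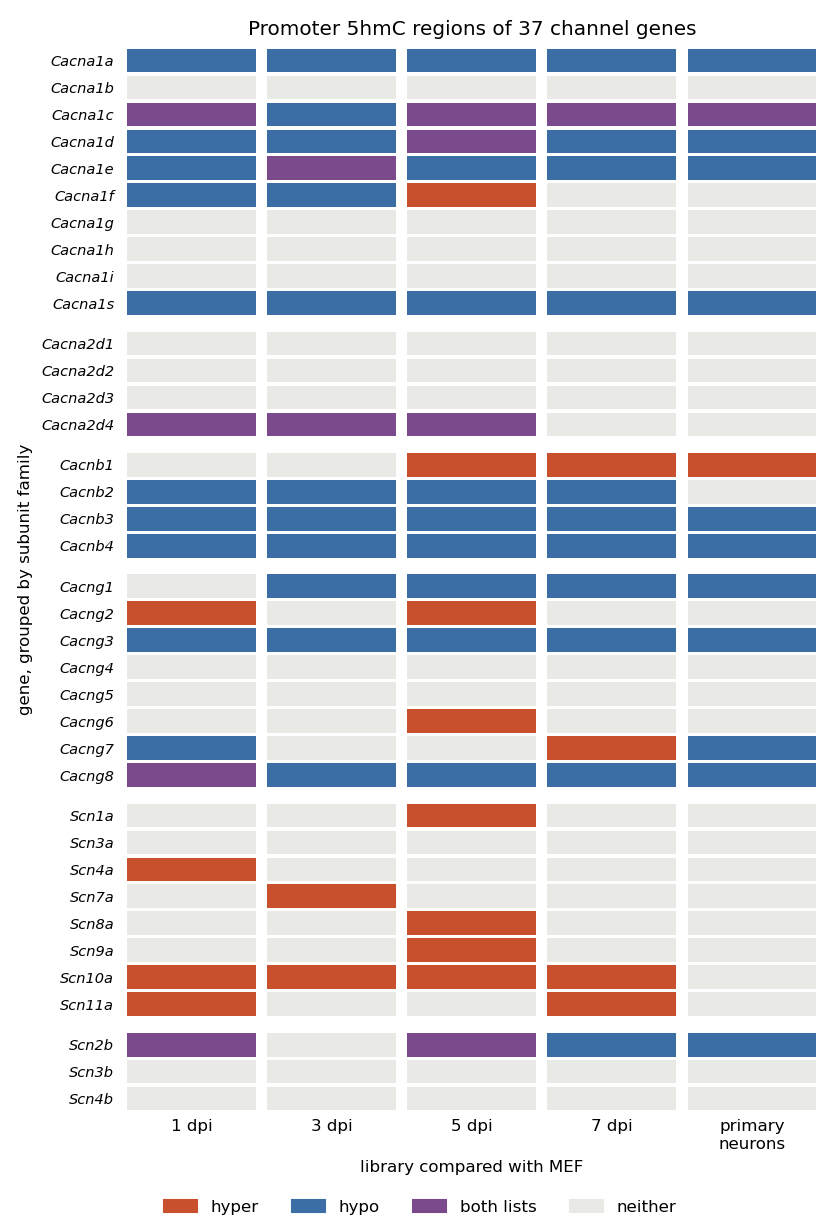
State of each of the 37 channel genes (rows, by subunit family) in each comparison with MEF (columns): hyper, hypo, both lists or neither. Sodium channel alpha genes are hyper or unlisted, and 9 calcium channel genes are hypo or in both lists across all 5 columns.

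Among the pore-forming calcium channel genes, Cacna1a, the P/Q-type channel of presynaptic terminals, had its hypo region at chr8:84413821-84414180 (mm10), upstream of an internal start site. It held 0, 1, 0 and 0 reads at 1, 3, 5 and 7 dpi and 1 read in primary neurons, against 26 reads in MEFs. All induced and primary neuron libraries were thus at or near 0 there, and the value at 3 dpi was 14.9-fold lower than in MEFs (95% exact conditional Poisson interval 2.44 to 609). Cacna1s, the L-type channel of skeletal muscle, held 4, 4, 0 and 1 reads at 1, 3, 5 and 7 dpi and 3 reads in primary neurons, against 36 reads in MEFs, at chr1:136053861-136054240 downstream of its start. Its fold was 20.6 lower at 7 dpi (interval 3.46 to 835). Cacna1d, an L-type channel of pacemaking and endocrine cells, was at 0 reads in every induced and primary neuron library at its hypo region of all 5 comparisons (chr14:30490281-30490660), against 20 reads in MEFs, which is at least 3.70-fold to at least 3.81-fold lower. At 5 dpi it also had a hyper region at another start site (chr14:30352721-30353040), with 9 reads against 0 listed in MEFs.

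Cacna1c, the L-type channel of heart, smooth muscle and brain, was in opposite lists at different start sites. Upstream of the start of NM_009781 (chr6:119197161-119197540) it held 3, 3, 2 and 0 reads at 1, 3, 5 and 7 dpi and 1 read in primary neurons, against 33 reads in MEFs, and was hypo in all 5 comparisons. The primary neuron value was 18.3-fold lower (interval 3.07 to 746), and that of 7 dpi, with 0 reads, at least 6.29-fold lower. Upstream of the internal start of NM_001256001 (chr6:119109441-119110320) the gene was hyper in 4 comparisons. There it held 11 reads at 1 dpi, 20 reads at 5 dpi, 14 and 11 reads in 2 adjacent regions at 7 dpi and 10 reads in primary neurons, against 0 listed reads in MEFs. The value at 5 dpi was at least 11.7-fold higher than in MEFs, and no region was listed there at 3 dpi.

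Cacna1e, the R-type channel of brain and endocrine cells, carried a hypo region of all 5 comparisons (chr1:154725741-154726120) across a start site inside its RefSeq span. The induced and primary neuron libraries all held 0 reads, against 21 reads in MEFs, at least 3.89-fold to at least 4-fold lower. The RefSeq promoter (GRCm38.p6, minus strand, chr1:154725891-154726170) is shown because the lists call the same start in both directions; capitals mark the 230 bases inside the hypo region of 7 dpi, which hold 10 CpG sites.
Cacna1e promoter: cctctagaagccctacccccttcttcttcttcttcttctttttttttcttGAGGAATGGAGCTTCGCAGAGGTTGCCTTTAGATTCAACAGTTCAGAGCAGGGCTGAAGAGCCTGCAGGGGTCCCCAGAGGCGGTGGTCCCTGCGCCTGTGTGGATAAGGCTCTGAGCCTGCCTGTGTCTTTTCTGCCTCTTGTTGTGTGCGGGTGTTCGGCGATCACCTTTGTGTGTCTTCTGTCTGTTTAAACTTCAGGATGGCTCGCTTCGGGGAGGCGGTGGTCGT
A hyper region with 11 reads at 3 dpi, against 0 listed reads in MEFs, shared 80 to 140 bp with the hypo regions over this start. Another hypo region of Cacna1e (chr1:154724601-154724980) held 0 reads, against 15 reads in MEFs, and was listed in 4 comparisons. Cacna1f, the L-type channel of retinal photoreceptors, was hypo at 1 and 3 dpi with 0 reads in each, against 18 reads in MEFs, and hyper at 5 dpi with 13 reads against 0 listed in MEFs. The other members, the N-type gene Cacna1b and the T-type genes Cacna1g, Cacna1h and Cacna1i, were in no promoter list.

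Of the alpha-2-delta genes, Cacna2d1, Cacna2d2 and Cacna2d3 were in no list. Their RefSeq promoters held 42, 43 and 41 CpG sites in 300 bases, against a median of 11 over the 39 member promoter sequences (29 genes) and 7 over all 32851 promoters. Cacna2d4, best known from the retina, was in both lists at 1, 3 and 5 dpi and in none at 7 dpi or in primary neurons. Its hypo region (chr6:119234641-119235020) held 0, 2 and 1 reads at 1, 3 and 5 dpi, against 22 reads in MEFs, and its 4 hyper regions held 9 to 11 reads, against 0 listed in MEFs, at 3 other places within 2000 bp of the start.

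The beta subunit genes of calcium channels split by gene. Cacnb3 held 0, 2, 0 and 2 reads at 1, 3, 5 and 7 dpi and 1 read in primary neurons, against 36 reads in MEFs, at chr15:98633321-98633760, and was 20-fold lower in primary neurons (interval 3.37 to 812). Cacnb4, the main form of the brain, was at 0 reads in all 5 induced and primary neuron libraries (chr2:52559081-52559760), against 36 MEF reads in the region listed at 3 dpi and 15 or 21 MEF reads in the regions of the other comparisons, which lie at other positions of the same locus. Its 3 dpi value was at least 6.86-fold lower. Cacnb2, prominent in heart, held 0 reads at 1, 3, 5 and 7 dpi, against 18 reads in MEFs, at least 3.38-fold to at least 3.43-fold lower, and was not listed in primary neurons. Its RefSeq promoter (plus strand, chr2:14604056-14604335) is shown as the most CpG-rich start under a listed region, with 32 CpG sites in these 280 bases; capitals mark the 255 bases inside the hypo region of 7 dpi.
Cacnb2 promoter: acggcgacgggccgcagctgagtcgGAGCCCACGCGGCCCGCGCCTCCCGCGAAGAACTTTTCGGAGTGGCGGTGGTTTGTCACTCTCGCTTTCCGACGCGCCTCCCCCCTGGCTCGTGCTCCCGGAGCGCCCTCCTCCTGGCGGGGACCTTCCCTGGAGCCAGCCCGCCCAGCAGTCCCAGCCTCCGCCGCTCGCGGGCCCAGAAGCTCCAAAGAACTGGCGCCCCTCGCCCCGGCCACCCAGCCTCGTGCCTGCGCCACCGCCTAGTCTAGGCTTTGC
Cacnb1, the beta subunit of skeletal muscle, was hyper in the 5 dpi, 7 dpi and primary neuron libraries, with 10 and 11 reads at 5 dpi, 11 reads at 7 dpi, and 10 and 11 reads in primary neurons, against 0 listed reads in MEFs throughout. These regions lay at 4 places, and the 1 near 692 to 762 bp downstream of the start recurred at 5 dpi and in primary neurons.

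In the Cacng family, Cacng3, an AMPA receptor escort of the forebrain, had the most MEF reads of any member region. It held 0, 1, 2 and 6 reads at 1, 3, 5 and 7 dpi and 4 reads in primary neurons, against 45 reads in MEFs. The value was 4.29-fold lower at 7 dpi (interval 1.82 to 12.3) and 25.7-fold lower at 3 dpi (interval 4.39 to 1038). At 1 dpi, with 0 reads, it was at least 8.44-fold lower.
Cacng8, another AMPA receptor escort, held 3, 0, 0 and 2 reads at 1, 3, 5 and 7 dpi and 0 reads in primary neurons, against 37 reads in MEFs (16 in the region of 3 dpi), and had a separate hyper region of 9 reads at 1 dpi. Cacng1, a skeletal muscle subunit, held 1, 0 and 0 reads at 3, 5 and 7 dpi and 0 reads in primary neurons, against 23 reads in MEFs, and was not listed at 1 dpi. Cacng7 was hypo at 1 dpi and in primary neurons (0 reads in each, against 18 reads in MEFs) and hyper at 7 dpi at another place (11 reads against 0 listed). Cacng2, or stargazin, was hyper at 1 and 5 dpi at different places; its largest region held 13 reads at 5 dpi against 1 read in MEFs, 22.8-fold higher (interval 3.42 to 967). Cacng6 was hyper at 5 dpi with 11 reads against 0 listed, and Cacng4 and Cacng5 were in no list.

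**Figure D3:**
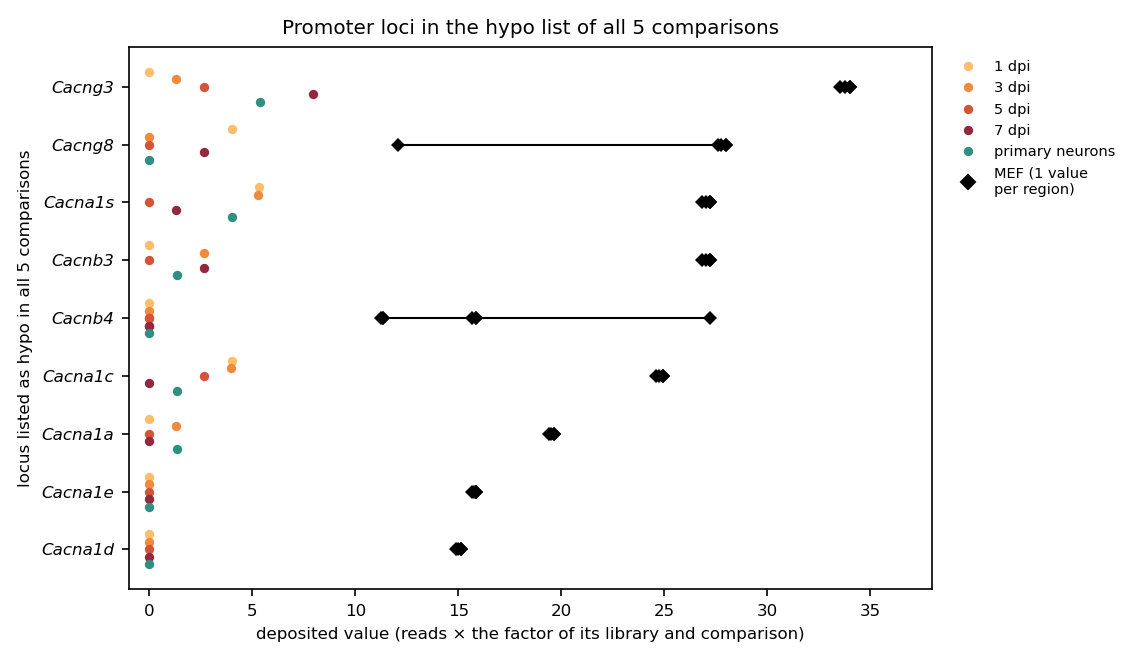
Deposited value, that is reads times the factor of the library and comparison, at the loci that were hypo in all 5 comparisons, for the induced and primary neuron libraries (circles) and MEF (diamonds, 1 for each listed region, joined by a line over their range). All circles lie below 8 and all diamonds above 11. This gap follows from the choice of loci, as listed hypo regions hold at least 15 MEF reads. Only hypo regions are drawn, which leaves out the hyper region of Cacna1e at 3 dpi (11 reads against 0 listed in MEF). The MEF diamonds of Cacng8 and Cacnb4 are spread out, and the regions listed there differ in extent and position between comparisons.

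Among the sodium channel alpha genes, Scn10a, a channel of pain-sensing neurons, was hyper at 1, 3, 5 and 7 dpi. Its 2 adjacent loci downstream of the start (chr9:119717381-119717800 and chr9:119717821-119718160) held 14 and 9 reads at 1 dpi and 15 and 15 reads at 3 dpi. The first held 10 reads at 7 dpi and the second 10 reads at 5 dpi, all against 0 listed reads in MEFs. The folds ran from at least 5.33 to at least 8.75 higher, and Scn10a was not listed in primary neurons. The gene beside it, Scn11a, also a channel of pain-sensing neurons, was hyper at 1 dpi (11 reads) and 7 dpi (9 reads) at places 2 kb apart, against 0 listed in MEFs.

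Each of the other hyper alpha genes was listed in 1 comparison. At 5 dpi, Scn1a, of inhibitory neurons and the heart, held 15 reads, Scn8a, of the axon initial segment, 15 and 9 reads, and Scn9a, of sensory and sympathetic neurons, 10 and 9 reads, against 0 listed in MEFs. Scn4a, of skeletal muscle, held 9 reads at 1 dpi against 0 listed in MEFs. Scn7a, an atypical member known for sensing salt in glia, held 10 reads at 3 dpi against 0 listed, at least 5.83-fold higher. Scn3a, a channel of the embryonic brain, was in no list. The RefSeq promoter of Scn7a (minus strand, chr2:66784881-66785160) is shown as the 1 alpha gene with a hyper region over its start window; capitals mark 120 bases of the region at 3 dpi, and the whole stretch holds 3 CpG sites.
Scn7a promoter: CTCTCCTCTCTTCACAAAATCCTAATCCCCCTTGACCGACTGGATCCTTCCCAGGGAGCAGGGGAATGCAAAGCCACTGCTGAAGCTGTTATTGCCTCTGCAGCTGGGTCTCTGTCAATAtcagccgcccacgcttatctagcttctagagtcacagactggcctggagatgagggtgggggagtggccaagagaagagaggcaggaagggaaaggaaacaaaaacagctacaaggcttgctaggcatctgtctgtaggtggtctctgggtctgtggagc
The brain channel gene Scn2a falls outside the rule because the lists name it by its older symbol, Scn2a1. Under that symbol its promoter (chr2:65670641-65671020) held 0, 1, 0 and 0 reads at 1, 3, 5 and 7 dpi and 1 read in primary neurons, against 29 or 30 reads in MEFs, and was hypo in all 5 comparisons. It was also hyper at 3 dpi farther downstream (chr2:65671801-65672160), with 12 reads against 0 listed in MEFs.

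Among the beta subunit genes of sodium channels, Scn2b was hypo upstream of its start (chr9:45116861-45117240), with 1, 1 and 1 reads at 1, 5 and 7 dpi and 0 reads in primary neurons, against 22 reads in MEFs. It was also hyper at 1 dpi (10 reads, at a place that overlapped the hypo regions of 5 dpi, 7 dpi and primary neurons by 60 bp) and at 5 dpi (9 reads), against 0 listed in MEFs. The 5 dpi region ran over the start site, shown here from RefSeq (plus strand, chr9:45117626-45117905) as the AT-rich counterpart of Cacnb2; capitals mark its 65 bases, with the only CpG site of the stretch.
Scn2b promoter: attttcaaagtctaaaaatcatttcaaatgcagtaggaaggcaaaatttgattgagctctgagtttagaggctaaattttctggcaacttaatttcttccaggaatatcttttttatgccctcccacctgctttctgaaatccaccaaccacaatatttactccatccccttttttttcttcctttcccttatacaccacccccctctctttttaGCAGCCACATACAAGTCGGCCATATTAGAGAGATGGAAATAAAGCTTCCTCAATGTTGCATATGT
Scn3b and Scn4b were in no list.

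**Figure D4:**
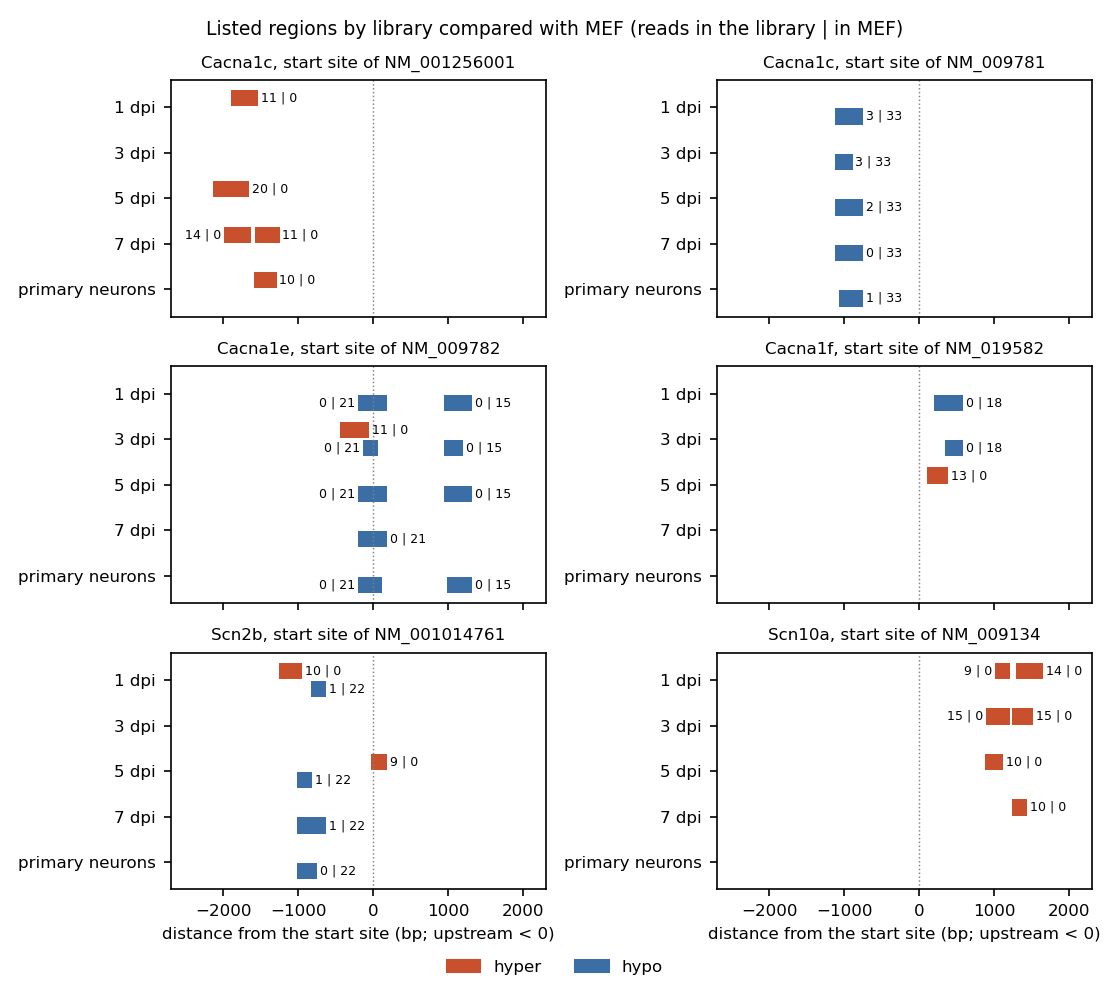
Listed regions of Cacna1c, Cacna1e, Cacna1f, Scn2b and Scn10a by distance from the start site of the named transcript, for each library compared with MEF; bars are regions and the numbers are reads in the library and in MEF. Cacna1c carries hyper regions at an internal start and hypo regions at the upstream start, Cacna1e, Cacna1f and Scn2b carry both at one start, and Scn10a carries hyper regions alone.

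Together the 37 genes had 118 listed regions, 41 hyper and 77 hypo. Hyper member regions were shallow: they held 9 to 20 reads with a median of 10, which was also the median over all hyper regions. Of the 41, 12 stood at 9 reads, the fewest of any listed hyper region (29.3%, against 35.0% of hyper regions of all genes). Hypo member regions held 15 to 45 MEF reads with a median of 22, against a median of 24 over all hypo regions. The centres of hyper member regions lay at a median of 1343 bp from the start, against 1113 bp over all hyper regions, and those of hypo member regions at 916 bp, against 1081 bp. Merged by position, the regions formed 46 loci. Of 28 loci that were hyper only, 23 were listed in 1 comparison, while 0 of 15 hypo-only loci were listed in 1 comparison alone. Over all RefSeq genes, 85.3% of hyper-only loci and 5.97% of hypo-only loci were listed in 1 comparison, so the members stood near the background in both. Of the 77 hypo regions, 48 lay on a deposited MEF peak (62.3%, against 46.3% to 49.7% of all hypo regions by comparison). Of the 41 hyper regions 1 did (2.44%). The 48 are repeated listings over the comparisons, on only 10 MEF peaks of 10 genes. They are not independent regions, and the higher share cannot be read as an excess. Over all genes, 5.85% to 8.41% of the hyper regions with 0 listed MEF reads lay on a MEF peak, so a listed 0 does not always mean that MEFs lacked reads at that place. The sources used here do not say how reads were assigned to overlapping regions.

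The promoter sequences were of mixed composition. Of 39 RefSeq promoter sequences of 29 member genes, 4 lay under a hypo region (Cacna1d, Cacna1e, Cacnb2 and Cacng3, with 4 to 35 CpG sites) and 3 under a hyper region (Cacna1e, Scn2b and Scn7a, with 2 to 11). The left part of the element bound by the repressor REST, TTCAGCACC, searched on both strands, was in 0 of the 39 and in 0.371% of all 32851 promoters. The palindromic E-box CAGCTG, bound by several basic helix-loop-helix factors, was in 13 of the 39, Cacnb2 and Scn7a among them, and in 16.3% of all promoters.

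Several members lie side by side in the genome, and neighbours did not always share a state. Scn1a, Scn9a and Scn7a on chromosome 2 were each hyper in 1 comparison and never hypo. On the same chromosome, Scn3a was in no list. Scn2a, also there but outside the rule, was hypo in all 5 comparisons and hyper at 3 dpi. Scn10a and Scn11a on chromosome 9 were both hyper at some time and never hypo. Of Cacng1, Cacng4 and Cacng5 on chromosome 11, Cacng1 was hypo and the other two were in no list. The neighbours Cacna1c and Cacna2d4 on chromosome 6 were both in both lists. Cacng7, Cacng8 and Cacng6 on chromosome 7 were all hyper at some time, and Cacng7 and Cacng8 were also hypo. Scn2b on chromosome 9 was in both lists, while Scn4b beside it was in none.

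Of 48 genes whose proteins bind, anchor or work beside these channels, such as ryanodine receptors, junctophilins, ankyrins and the sodium leak channel Nalcn, 8, 7, 10 and 5 were hyper at 1, 3, 5 and 7 dpi and 5 in the primary neurons. As shares these are 16.7%, 14.6%, 20.8%, 10.4% and 10.4%, where all genes gave 11.7%, 10.9%, 16.9%, 7.44% and 7.43%. In the hypo lists there were 26, 27, 27 and 26 at 1, 3, 5 and 7 dpi and 27 in the primary neurons. This is 54.2% to 56.2% of these genes, against 34.1% to 36.8% of all genes. Of the 48, 18 were hypo in all 5 comparisons (24.7% of all genes were), among them Ryr1, Jph1, Jph2 and Jph3. Their relatives differed: Ryr2 was hypo in 4 comparisons and Ryr3 in 3, while Jph4 was hyper in 3 and hypo in 0. Of the 48, 9 were in no list, while 58.9% of all genes were in at least 1 list.

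In the peak lists, which cover the whole genome and not promoters alone, few channel genes had an assigned peak outside MEFs. At 1 dpi, 1 of the 37 genes had an assigned peak (0.805% of all genes), at 3 dpi 1 (3.86%), at 5 dpi 1 (3.41%), at 7 dpi 3 (4.71%) and in primary neurons 0 (1.62%). In MEFs, 35 genes had one (75.6% of all genes), which cannot be read as an excess. Of the 37 members, 19 span 100 kb or more. By position, 99.96% of all protein-coding genes that long held a MEF peak, against 57.9% of shorter ones. Members also had to be named in a list, unlike all genes. Cacna1f and Cacnb1 were without an assigned MEF peak, although 1 MEF peak lies inside the span of Cacnb1. Outside MEFs, 6 genes had 1 peak each, while 7.93% of all genes had a peak in any such library. The peaks of Scn11a at 1 dpi (6.37-fold) and Cacng5 at 3 dpi (6.38-fold) lay 30.04 kb and 160 kb from the start. At 5 dpi, Cacna1i had a peak of 4.06-fold in its gene body. At 7 dpi, Cacna1a had a peak of 7.18-fold enrichment over background (chr8:84351932-84352434), Cacna1e one of 5.96-fold (chr1:154798196-154798675) and Scn10a one of 3.09-fold in its body (chr9:119711964-119712586). Those of Cacna1a and Cacna1e were annotated as intergenic by the authors but lie inside the RefSeq span of the gene. These folds are the authors' own values. Of the 6 peaks, 0 overlapped a MEF peak by 1 bp, which by an exact binomial interval allows up to 45.9%, where 41.1% of all 4728 peaks outside MEFs did. Counted by position, whatever gene they were assigned to, 7 peaks lay inside the RefSeq spans of the 37 genes, and 1 of these, in Cacna1e at 7 dpi (chr1:154470235-154470714, 6.83-fold), met a MEF peak.

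In MEFs, 365 peaks were assigned to the 35 genes: 10 to promoters, 198 to gene bodies and 157 to intergenic sequence. Cacnb2 had the most with 32, followed by Cacna2d3 with 25 and Cacna1e with 24. The 10 promoter peaks belonged to 10 genes (19.8% of all genes had one), and the highest was that of Cacng3, 5.64-fold with 45 tags at the summit, the same number as the MEF reads of its hypo region. The highest member peaks of MEFs were far from starts, at 11.97-fold 155 kb from Scn7a and 11.3-fold 140 kb from Cacng3. Counted by position, 391 MEF peaks lay inside the RefSeq spans of the 37 genes, of which 246 had been assigned to that gene. This is 6.58 peaks per 100 kb, against 6.87 over all 21031 protein-coding genes. By family the density ran from 5.52 in Cacna2d to 9.97 in the sodium channel beta genes, where 5 peaks lay in 50.1 kb.

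**Figure D5:**
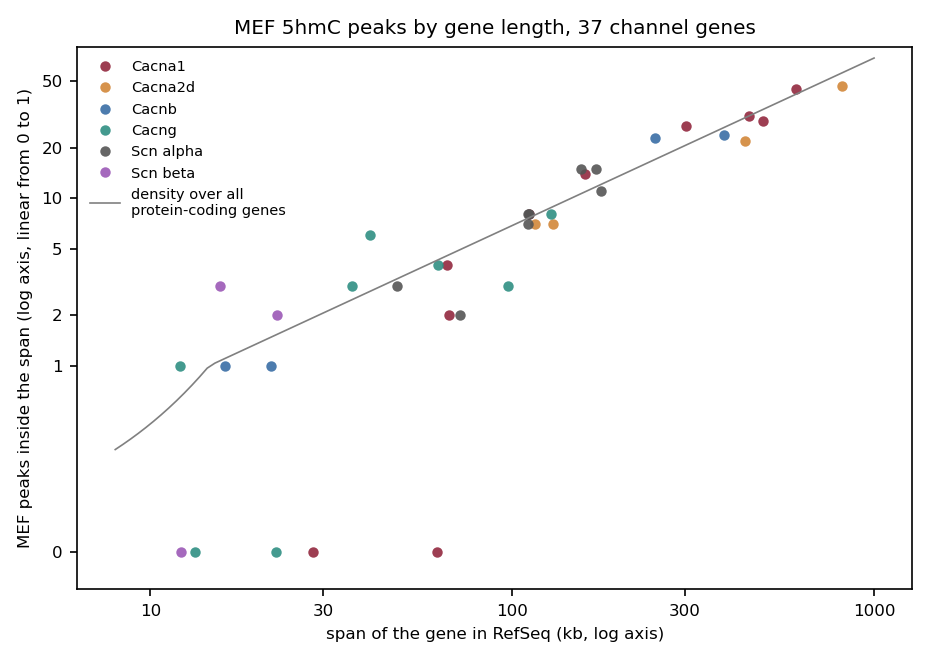
Number of MEF peaks inside the RefSeq span of each channel gene against the length of that span, coloured by family, with the density over all protein-coding genes as a line. The long genes follow the line closely, and all 5 genes with no peak in their span (Cacna1f, Cacna1h, Cacng1, Cacng8 and Scn2b) are under 100 kb.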

How the data were processed

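The libraries were processed by the submitters with CASAVA and aligned with Bowtie2 2.1.0 to mm10, per the submitters' processing notes; for the caller, its settings and the input, nothing is given in the sources used here. Promoter lists as deposited hold a scaled signal per region and library, with log2 ratios, p-values and q-values of the authors. The deposited peak lists hold a fold enrichment ratio, summit tags as signal and q-values as −log10. Reads were recovered by dividing the deposited signal by 1 factor per library and comparison (all values whole within 0.1).

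Each gene was scored by its listed regions; folds carry exact conditional Poisson intervals at 95.0% and shares exact binomial ones, both for counting error only. Steps were tested on simulated data. The software was matplotlib 3.10.9, scipy 1.17.1, pandas 2.3.3 and numpy 2.4.6 under Python 3.11.15; spans and promoters came from RefSeq GRCm38.p6. The background was 26220 RefSeq genes. The 2 inputs, which are not replicates, were not analysed here. With 1 library per group there was no test. The rule found 39 genes; 2 of them and 1 promoter sequence are not reported here. Every other member could be named, with full values for the largest folds, recurrent members and members with peaks outside MEF. The members and lists were chosen with earlier results of these data known. The labels of 3, 5 and 7 dpi name another library's code for a hyper list, and the column headers were followed.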

Additional observations from a re-analysis of the deposited data

Results flagged for a closer look

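A total of 3 genes had overlapping promoter regions that were hyper in one comparison with MEF and hypo in another, a difference in direction that was not tested. The largest overlap was 180 bp in Cacna1f (13 reads at 5 dpi against 0 listed in MEF, and 0 reads at 1 dpi against 18 in MEF). It was 140 bp in Cacna1e (11 reads at 3 dpi against 0 listed, and 0 reads at 1 dpi against 21) and 60 bp in Scn2b (10 reads at 1 dpi against 0 listed, and 1 read at 5 dpi against 22). In Cacna1e, such an overlap was also found within 1 comparison. Over all genes, 5.42% to 7.55% of hyper regions overlapped a hypo region of the same comparison. The share of all genes with such an overlap between comparisons was not counted, so the 3 genes have no background.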

How the results depend on the processing

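No paired analysis was possible because each group had 1 library, and no library could be left out without ending its comparison. Most region counts depended on the threshold. With only regions at p below 1e-10, 0, 0, 0 and 0 members were hyper at 1, 3, 5 and 7 dpi and 0 in primary neurons, and 1, 0, 0 and 0 were hypo at these times and 0 in primary neurons. With 15 reads or more required in the higher library, the hyper counts became 0 (1 dpi), 1 (3 dpi), 3 (5 dpi), 0 (7 dpi) and 0 (primary neurons). This cut could not lower the hypo counts, because every listed hypo region already holds at least 15 MEF reads. Hyper regions are listed from 9 reads, so the cut does not compare how firm the lists are. With regions wholly within 1000 bp of the start, 1, 3, 6 and 0 were hyper and 8, 5, 5 and 5 hypo at 1, 3, 5 and 7 dpi, and 1 hyper and 4 hypo in primary neurons. Shares of all genes under this limit were not counted. Recentring folds on the median log2 value of all listed regions (−1.78 to −2) left 2, 4, 7 and 4 hypo at 1, 3, 5 and 7 dpi and 3 in the primary neurons. The hyper counts could not fall under this setting, because it raises every hyper value. Adding Scn2a under its older symbol changed no count by more than 1. Members with a peak became 0 at 1 dpi, 0 at 3 dpi and 1 at 7 dpi without intergenic peaks, and 0 at 5 dpi and 1 at 7 dpi at an enrichment of at least 6. Counted by position inside RefSeq spans, a way chosen after seeing the data, they were 0 at 1 dpi, 0 at 3 dpi and 2 at 5 dpi. Genes in opposite lists were 1 when 50% of the shorter region had to overlap. With a floor of 1 read, all 10 recomputed folds stayed within their counting interval. That setting could not take them out of it: against 0 reads the interval has no upper limit, and other folds keep their value. Without scaling, 6 recomputed folds stayed and 4 did not. The latter were Scn10a, at 4.67 for 1 dpi and 5.00 for 3 dpi, Cacna1c at 7 dpi (4.67) and Cacnb1 in primary neurons (3.67). All 4 are hyper folds against 0 listed MEF reads. Leaving out the scaling divides a hyper fold by the ratio of the library factors, 1.75 to 1.8, and raises a hypo fold. The shift therefore follows from the setting. Depth limits all of this: a hyper call can rest on 9 reads.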
